A study of Homo sapiens with 8 samples.

Results

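The response of human T-cell acute lymphoblastic leukemia (T-ALL) cells to PKF118-310 was compared between the cell lines CUTLL1 and TIB153 across all genes. PKF118-310 is a small molecule that blocks the binding of β-catenin to TCF/LEF transcription factors. All 8 samples of the series entered the comparison. They fall into CUTLL1 control, CUTLL1 with PKF118-310, TIB153 control and TIB153 with PKF118-310, and each group is 1 poly(A) RNA library read in 2 lanes, which were summed. CUTLL1 (spelled CUTTL1 in the labels) carries a rearranged NOTCH1 gene, and both lines were grown in RPMI with fetal bovine serum and were not transfected. The labels give no dose or time, and the study treated both lines with the same dose for the same time. For each gene the log2 ratio of PKF118-310 over control was formed in each line, and the ratio in TIB153 was subtracted from the ratio in CUTLL1. A positive line difference therefore means that the ratio was higher in CUTLL1. Of 57189 genes in the files, 10291 were measured in both lines, with at least 5 CPM (counts scaled to library size) in at least 1 library of each.

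β-catenin carries Wnt signals to the nucleus, where it binds TCF7, LEF1 and their relatives on DNA and turns their target genes on, AXIN2 among them. In developing T cells TCF7 and LEF1 act beside NOTCH1, which drives T-lineage commitment and is mutated in much of T-ALL. Cortical thymocytes, the stage that many T-ALL cells resemble, display CD1 molecules and rearrange their T cell receptor genes with RAG1, RAG2 and the polymerase DNTT.

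Library totals lay between 7609427 and 8140391 counts, and 3 counts, the most that a gene with a count of 0 could plausibly have had, stood for 0.357 to 0.405 CPM. The 8 T cell markers checked were detected in every library, with summed levels of 1680 to 2400 CPM. Summed B cell markers reached 10.9 and 14.2 CPM in CUTLL1 and 79.1 and 105 CPM in TIB153, with MS4A1 and CD22 at 0 in all 4 libraries, and no other marker list (myeloid, NK cell, erythroid, fibroblast) exceeded 5.48 CPM. With 1 library per group the deposited lanes hold no replicate error, so intervals on them are 95% counting intervals, which cover counting error only. The authors' comparison tables hold more. Each lists 2 control and 2 treated columns, and in each group 1 column matched the summed lanes of the deposited library (0.0488 to 0.0601 of the spread that counting noise gives). The other column differed from them by 1.3 to 1.38 times counting noise, against 0.998 to 1.04 between lanes, and so was a second library. For the 2420 genes present in both tables each group thus had n = 2 libraries, and the line difference was tested as the line by treatment interaction with edgeR's quasi-likelihood test. Nothing in the labels says that these libraries came from separate cultures, and the p-values measure the spread between these libraries alone. The tables list only genes that the authors had called changed, so genes that responded in a single line are mostly absent from that test.

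At most genes the ratios of the lines differed by a small margin, and most genes had no 2-fold ratio in either line. The median line difference over the 10291 genes was 0.04 on the log2 scale, its 5th and 95th percentiles were −0.64 and 0.71, and the median half-width of the counting interval was 0.30. A line difference of at least 2-fold whose interval excluded 0 was found for 181 genes in the direction of CUTLL1 (1.76% of those measured) and for 182 genes in the direction of TIB153 (1.77%), 3.53% together. Within each line, ratios of at least 2-fold beyond counting error numbered 281 higher (2.73%) and 126 lower (1.22%) in CUTLL1 and 302 higher (2.93%) and 179 lower (1.74%) in TIB153. Of the 754 genes with such a ratio in at least 1 line, 132 had it in both with the same sign. Just inside the 2-fold limit lay NDST3 at 1.002 and CCDC18-AS1 at −1.002, and just outside it LINC01215 and MICAL1 at −0.998. The differing genes were low in level, with a median of 10.7 CPM in CUTLL1 control cells against 47.8 CPM over all measured genes.

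The 10291 genes were sorted by how each line responded. A gene counted as a responder of one line where its ratio was at least 2-fold beyond counting error there, under 0.5 in size on the log2 scale in the other line, and different between the lines by the criterion above. CUTLL1 had 60 such genes that were higher (0.583% of those measured) and 35 that were lower (0.34%), and TIB153 had 45 that were higher (0.437%) and 20 that were lower (0.194%). Opposite responses, with ratios of at least 0.5 in size beyond counting error in both lines, were found for 24 genes higher in CUTLL1 and lower in TIB153 (0.233%) and for 28 genes in the reverse arrangement (0.272%). Another 42 genes had ratios of the same sign and unequal size (0.408%), and 109 genes with a line difference met none of these limits (1.06%). In the scatter of the ratios in the lines these classes lie apart around a dense center, which the limits on the same ratios set.

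**Figure D1:**
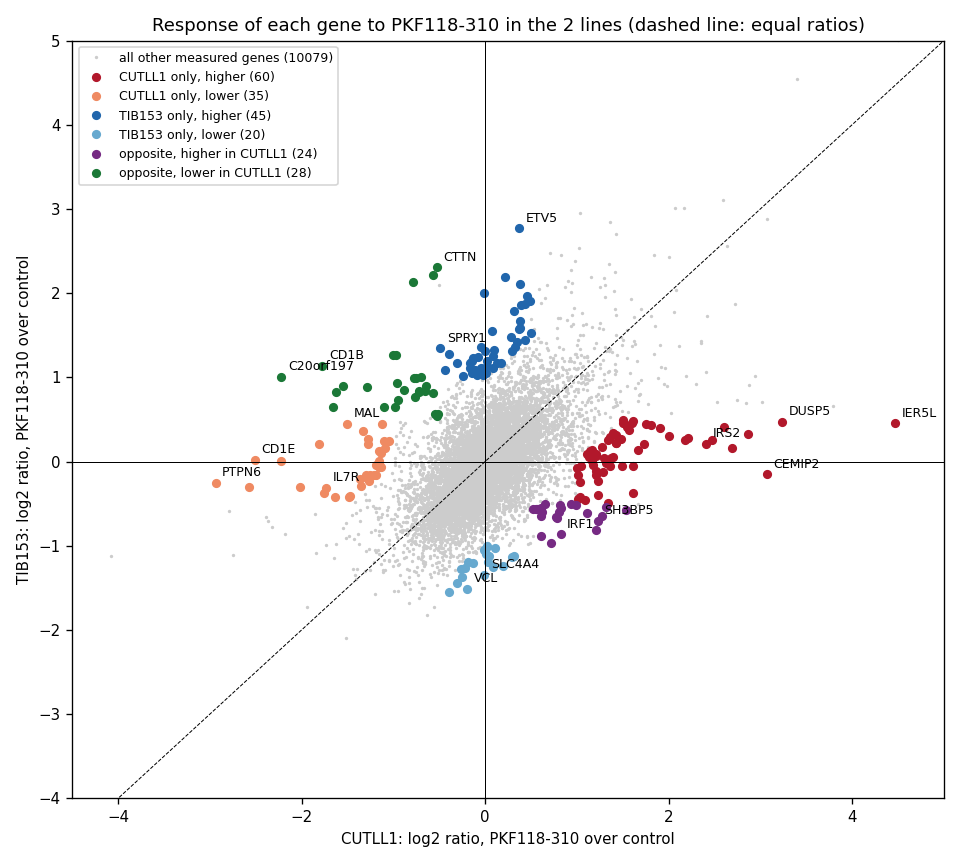
Log2 ratio, PKF118-310 over control, for CUTLL1 (horizontal) and for TIB153 (vertical) for the 10291 genes measured in both lines, 1 library per group. Colored points are the 6 classes named in the key with their gene counts, gray points all other genes, and the dashed line marks equal ratios.

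Second libraries allowed these values to be compared. Of the 363 genes with a line difference, 69 were in both tables, and in 68 of them the line difference between the second libraries alone had the same sign, with a median size of 1.21 against 1.32 in the deposited libraries. Over all 2351 genes of both tables that were measured in both lines, the signs were the same for 1851. The tables had selected their genes on columns that include the second libraries, so these counts describe the second values and are no test. The interaction passed an adjusted p of 0.05 for 908 of the 2420 genes (37.5%), 591 of them higher in CUTLL1 (24.4%) and 317 lower (13.1%), and 1080 genes had an unadjusted p under 0.05. At 2-fold or more, 31 genes were higher (1.28%) and 41 lower in CUTLL1 (1.69%). Opposite directions in which neither line's treated and control libraries overlapped were found for 79 genes up in CUTLL1 and down in TIB153 (3.26%) and for 50 genes in reverse (2.07%).

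The deepest line-specific decrease was in PTPN6, which encodes the tyrosine phosphatase SHP-1, a brake on antigen receptor and cytokine receptor signaling. PTPN6 (chromosome 12, 6946467 to 6961316, plus strand, hg38, protein-coding) had 2772 counts in CUTLL1 control cells and 391 with PKF118-310, against 483 and 441 in TIB153. That is 7.67-fold lower in CUTLL1 and 1.19-fold lower in TIB153, a line difference of −2.68 (−2.92 to −2.44). The table libraries of PTPN6 stood at 376 and 385 CPM in control and 48.3 and 48.6 CPM in treated CUTLL1, and at 62.1 and 62.8 CPM in control and 51.5 and 52.6 CPM in treated TIB153. Treated libraries lay below control libraries in both lines without overlap, and treated CUTLL1 ended slightly below treated TIB153 although its control level was far higher. The interaction was −2.71 with an SE of 0.0827 and an adjusted p of 2.45e-19 in edgeR, the smallest of the 2420 genes. RefSeq places starts of PTPN6 in 2 windows, and the one at chr12:6951106-6951405 (GRCh38.p14, plus strand, 250 bases before the start and 50 after) is shown because it holds the letters CTTTGA searched for as a TCF/LEF motif and TGGGAA searched for as an RBPJ motif, both in capitals.
PTPN6: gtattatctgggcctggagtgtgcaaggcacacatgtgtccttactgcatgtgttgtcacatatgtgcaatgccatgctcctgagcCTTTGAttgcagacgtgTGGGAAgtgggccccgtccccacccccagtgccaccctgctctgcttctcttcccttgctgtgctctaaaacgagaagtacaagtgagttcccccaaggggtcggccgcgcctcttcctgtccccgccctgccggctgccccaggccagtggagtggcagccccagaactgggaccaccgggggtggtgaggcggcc
The other window, at chr12:6946327-6946626, held none of the 4 motifs searched. A match of letters is a description and says nothing of binding.

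Some genes of thymocyte identity had lower ratios in CUTLL1 than in TIB153. Of the 12 measured members of the CD1 family and cortical thymocyte list, 5 were lower in CUTLL1 by the line difference and none higher, against 3.53% of all genes in either direction, and the list median was −0.54. CD1E, a helper of lipid loading onto other CD1 molecules, had 864 and 164 counts in control and treated CUTLL1 and 312 and 345 in TIB153, a line difference of −2.53 (−2.85 to −2.2). CD1E in the 2 CUTLL1 libraries of each condition was at 118 and 117 CPM in control and 21.2 and 20.1 CPM with PKF118-310, so the decrease was present in both. DNTT, which adds template-free nucleotides during receptor rearrangement, had control and treated counts of 156 and 24 in CUTLL1 and of 450 and 327 in TIB153, an interaction of −2.33 ± 0.21 (SE, edgeR, adjusted p = 8.26e-10). CD1C (line difference −1.14, interaction −1.08, edgeR adjusted p = 8.86e-07) and CD8B (line difference −1.23) were the remaining members with a line difference beside CD1B, which is described with the opposite responses. RAG1 was low with PKF118-310 in both lines, with ratios of −1.94 and −1.72, and its interaction of −0.22 did not pass (edgeR adjusted p = 0.269). Of the 6 list members in both tables, 4 passed the interaction lower and 1 higher in CUTLL1, against 13.1% lower and 24.4% higher over all 2420 genes. In the V(D)J recombination list, which also holds DNTT, 1 of 9 measured members was lower and none higher, 4 of 9 had a difference above 0, the median was −0.11, and the interaction passed higher for 2 and lower for 1 of 5.

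T cell surface and receptor genes followed in part. Of the 13 measured CD3 complex and pan-T members, 3 were lower in CUTLL1 and none higher, against 1.77% and 1.76% of all genes. Of the 7 in both tables the interaction passed lower for 4 and higher for 1, against 13.1% and 24.4% over all 2420 genes. CD28, a costimulatory receptor, had 635 and 133 counts in control and treated CUTLL1 and 1807 and 1204 in TIB153. Its ratios were −2.37 and −0.71, and the interaction of −1.66 ± 0.0977 passed at an edgeR adjusted p of 1.7e-13. CD2, an adhesion receptor, had control and treated counts of 104 and 33 in CUTLL1 and of 815 and 688 in TIB153 (interaction −1.33 ± 0.185, edgeR adjusted p = 1.39e-06). CD3D also passed the interaction, at −0.60 (edgeR adjusted p = 9.31e-11), while CD3E had ratios of −0.08 and −0.03. Among the 26 measured members of the proximal T cell receptor signaling list, PTPN6 and RASGRP1 were lower in CUTLL1 and none higher. RASGRP1, which activates RAS downstream of the receptor, had control and treated counts of 606 and 332 in CUTLL1 and of 532 and 599 in TIB153. LCK, the kinase that starts receptor signaling, had ratios of −0.14 and 0.1. MAL, a membrane raft protein of T cells, had 410 and 156 counts (control, treated) in CUTLL1 against 78 and 116 in TIB153. ITGAL, a subunit of the integrin LFA-1, had control and treated counts of 450 and 214 in CUTLL1 and of 950 and 1005 in TIB153.

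NOTCH receptors and targets also held members with lower ratios in CUTLL1. Of 14 measured members, 4 were lower in CUTLL1 (1.77% of all genes were) and none higher. The list medians were near each other, at −0.51 in CUTLL1 and −0.54 in TIB153, and the median line difference was −0.16. Among the 8 present in both tables, the interaction passed lower in CUTLL1 for 5 and higher for 1, against 13.1% and 24.4% over all genes of both tables. CR2, the complement receptor CD21 and one of the most NOTCH-dependent genes of T-ALL cells, had 677 and 43 counts (control, treated) in CUTLL1 against 376 and 188 in TIB153. CR2 was thus 16.9-fold lower in CUTLL1 and 2.18-fold lower in TIB153, with control libraries at 92.6 and 83 CPM and treated libraries at 4.41 and 5.5 CPM in CUTLL1, and 50.4 and 49.2 against 25.5 and 22.7 CPM in TIB153. Its interaction was −3.10 ± 0.173 (edgeR, adjusted p = 8.36e-14). IL7R, the IL-7 receptor α chain, had 1388 and 450 counts in CUTLL1 but only 74 and 65 in TIB153, a line difference of −1.43 (−1.93 to −0.92). NOTCH1 had ratios of −1.26 and −0.45 (interaction −0.78 ± 0.0499, edgeR adjusted p = 1.22e-12) and NOTCH3 ratios of −1.74 and −1.0 (interaction −0.78 ± 0.0693, edgeR adjusted p = 5.87e-10), short of the 2-fold limit but past the edgeR test. LUNAR1 (chromosome 15, 99028537 to 99031053, plus strand), a lincRNA known to be induced by NOTCH1 in T-ALL, had control and treated counts of 75 and 17 in CUTLL1 and of 54 and 59 in TIB153. It was in neither comparison table, so these values rest on 1 library per group and were not tested. HES4 was lower in CUTLL1 alone, at 1282 and 623 counts against 891 and 976. HES1, the classic NOTCH target, was higher with PKF118-310 in both lines, with ratios of 0.68 and 2.1 and an interaction of −1.18 ± 0.236 (edgeR, adjusted p = 0.000201). Line differences were above 0 for 6 of the 14 members, with RHOU at 0.85, TRIB2 at 0.84 and NOTCH2 at 0.82. NOTCH2 had ratios of 0.32 and −0.5 (interaction 0.86, edgeR adjusted p = 5.22e-09), and MYC had ratios of −0.22 and −0.21, with an interaction that did not pass (edgeR adjusted p = 0.651).

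Of the 35 genes lower in CUTLL1 alone, 29 were in the CUTLL1 table, and in all 29 the treated and control libraries did not overlap. The ratio between the second libraries was at least 2-fold in 26 of them. The tables had selected their genes on the same columns, so such counts of second libraries, here and for the other classes, describe the size of the second ratio and are no test. Chosen after their values were seen, other members were TERT, the catalytic subunit of telomerase, CD38, POU2AF1, a coactivator of octamer factors, and RMI2 of the BLM helicase complex, with 200 and 86 counts in CUTLL1 against 89 and 125 in TIB153. TRBV7-2, a T cell receptor β variable segment, had 85 and 15 counts (control, treated) in CUTLL1 against 68 and 60 in TIB153, and it has near-identical relatives that share reads, so its value is uncertain.

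**Figure D2:**
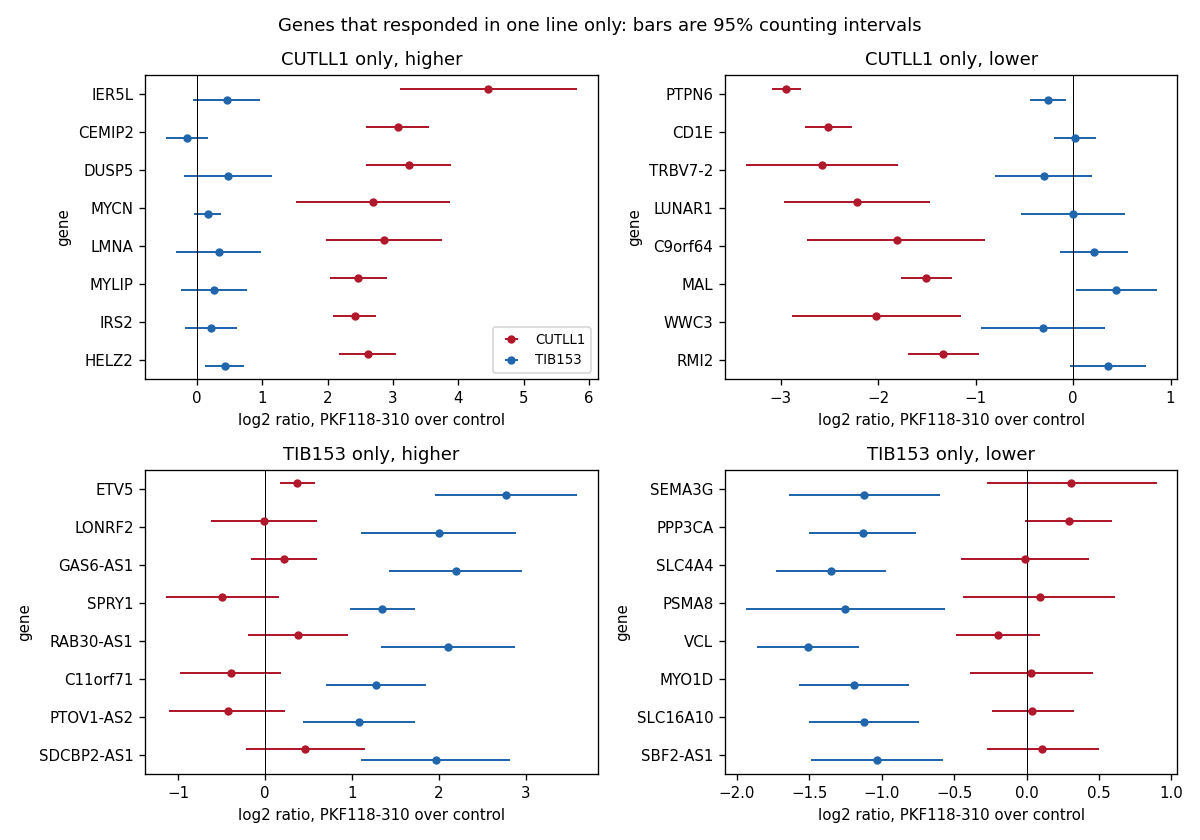
Log2 ratio, PKF118-310 over control, for CUTLL1 (red) and TIB153 (blue) for the 8 genes with the largest line difference in each of the 4 one-line classes, with 95% counting intervals (1 library per group). The ratio of the line that did not reach the limit lies under 0.5 in size, although for PTPN6, MAL and HELZ2 in TIB153 and ETV5 in CUTLL1 its interval excludes 0.

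The largest line difference among genes higher in CUTLL1 alone was that of IER5L, a relative of the immediate early gene IER5. IER5L (chromosome 9, 129175551 to 129178262, minus strand) had 4 and 107 counts in control and treated CUTLL1 and 50 and 75 in TIB153, a line difference of 4.01 (2.55 to 5.46). IER5L was at 0.554 and 1.22 CPM in the control libraries of CUTLL1 and at 13.1 and 12.9 CPM in the treated libraries. In IER5L another gene, on either strand, overlaps 39.2% of exonic bases, and whether the counting used strand is not stated in these sources. CEMIP2, a transmembrane protein linked to hyaluronan turnover, had control and treated counts of 38 and 350 in CUTLL1 and of 155 and 152 in TIB153. Absent from both comparison tables, CEMIP2 rests on 1 library per group and was not tested. DUSP5, a nuclear phosphatase of ERK, had 20 and 209 counts (control, treated) in CUTLL1 against 29 and 44 in TIB153, with CUTLL1 libraries at 2.91 and 2.85 CPM in control and 24.5 and 25.7 CPM with PKF118-310. MYCN went from 6 to 45 counts in CUTLL1 and was already at 328 counts in TIB153 control cells, where it had 400 with PKF118-310. LMNA, which encodes lamins A and C, had control and treated counts of 11 and 90 in CUTLL1 and of 32 and 44 in TIB153. MYLIP, a ubiquitin ligase, had 49 and 297 counts (control, treated) in CUTLL1 against 55 and 72 in TIB153. For the genes of this class named here control levels in CUTLL1 were low, and the class median was 6.68 CPM in CUTLL1 control cells. IER5L, DUSP5, MYCN and LMNA met the minimum of 5 CPM in CUTLL1 only through the treated library. Low control levels in this class therefore follow in part from how genes were admitted.

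Of the 60 genes higher in CUTLL1 alone, 48 were in the CUTLL1 table, treated and control libraries did not overlap in any of them, and the second libraries differed by at least 2-fold in 39. Their median ratio was 1.41 in the second and 1.41 in the deposited libraries. Protein-coding genes made up 96.7% of this class against 94.2% of all measured genes.

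FOXO factors and quiescence genes were the list with the largest share of members higher in CUTLL1. FOXO factors are held outside the nucleus by AKT and switch on genes of metabolic restraint and of resting lymphocytes. Of 16 measured members 5 were higher and 1 (IL7R) lower in CUTLL1, against 1.76% and 1.77% of all genes. A difference above 0 was found for 15 of the 16, against 5575 of all 10291 genes. The list medians were 1.04 in CUTLL1 and 0.13 in TIB153. IRS2, an adaptor of the insulin receptor, had control and treated counts of 86 and 498 in CUTLL1 and of 88 and 111 in TIB153, with CUTLL1 libraries at 11.8 and 10.3 CPM in control and 56.6 and 61.9 CPM with PKF118-310. S1PR1, which guides lymphocyte egress, had 16 and 56 counts (control, treated) in CUTLL1 against 672 and 809 in TIB153. It counts among the higher members, but met the minimum of 5 CPM in CUTLL1 only through the treated library. TOB1, an antiproliferative factor, had control and treated counts of 160 and 448 in CUTLL1 and of 95 and 107 in TIB153. KLF2, a quiescence factor that is also an immediate early gene, had a line difference of 1.25 that came mostly from TIB153, with 93 and 122 counts in CUTLL1 against 382 and 212 in TIB153. CITED2 had ratios of 0.73 and −0.49. In contrast, BTG1 and KLHL24 were at 1.38 and 1.86 in CUTLL1 and at 1.3 and 1.62 in TIB153, and their interactions did not pass (edgeR adjusted p = 0.763 and 0.694). Only 3 members were in both tables, of which KLF3 passed the interaction (0.73, edgeR adjusted p = 0.00196).

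Immediate early and AP-1 genes were unequal between the lines in both directions. Of 22 measured members 6 were higher (1.76% of all genes were) and 1 (TNFAIP3) lower in CUTLL1 (1.77%), with list medians of 1.03 in CUTLL1 and 0.44 in TIB153. Of the 7 in both tables, the interaction passed higher for 2 and lower for 3, against 24.4% and 13.1% over all 2420 genes. JUNB, an AP-1 subunit, had 169 and 471 counts (control, treated) in CUTLL1 against 247 and 260 in TIB153. SGK1, a kinase related to AKT, had control and treated counts of 41 and 259 in CUTLL1 and of 24 and 43 in TIB153. JUN was high in both lines, at ratios of 2.59 and 3.1, and its interaction of −0.52 ± 0.175 passed lower in CUTLL1 (edgeR, adjusted p = 0.0209). The JUN interaction did not pass in DESeq2's Wald test (adjusted p = 0.112). ATF3 was at 2.08 and 2.04, with an interaction that did not pass (edgeR adjusted p = 0.834). TNFAIP3, the NF-κB inhibitor A20, had 369 and 773 counts (control, treated) in CUTLL1 against 343 and 1634 in TIB153, and its interaction was −1.10 ± 0.094 (edgeR, adjusted p = 2.99e-10). RELB, an NF-κB subunit, went the other way, with control and treated counts of 20 and 83 in CUTLL1 and of 38 and 55 in TIB153. RELB in both lines and SGK1 in TIB153 met the minimum of 5 CPM only through the treated library. FOS had control and treated counts of 20 and 293 in CUTLL1 and of 10 and 31 in TIB153, where it stayed under 5 CPM and was not counted as measured.

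In the T-ALL lineage transcription factor list 3 of 21 members were higher in CUTLL1 (1.76% of all genes were) and none lower (1.77%), and the median was 0.02. Of the 8 in both tables, the interaction passed lower for 4 and higher for 2, against 13.1% and 24.4% over all genes of both tables. ID1 and ID3 are inhibitors of E proteins. ID1 had 80 and 233 counts (control, treated) in CUTLL1 against 338 and 459 in TIB153. ID3 had control and treated counts of 221 and 493 in CUTLL1 and of 766 and 804 in TIB153. RUNX3 had 204 and 561 counts (control, treated) in CUTLL1 against 279 and 363 in TIB153. MYB and GATA3 were past the interaction in the other direction without reaching 2-fold, at −0.86 (edgeR adjusted p = 1.43e-14) and −0.89 (edgeR adjusted p = 2.11e-09).

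Wnt components and targets held 2 of 22 measured members with a line difference (9.09%, against 3.53% of all genes), both higher in CUTLL1. AXIN2, a feedback inhibitor and direct target of β-catenin/TCF, had control and treated counts of 45 and 99 in CUTLL1 and of 71 and 57 in TIB153, a line difference of 1.45 (0.74 to 2.17). AXIN2 was in neither comparison table, so these values rest on 1 library per group and its line difference was not tested. BCL9L, a coactivator that binds β-catenin, had 251 and 578 counts (control, treated) in CUTLL1 against 288 and 228 in TIB153. BCL9L libraries were at 33.8 and 32.9 CPM in control and 71.5 and 72.5 CPM in treated CUTLL1, and at 40.0 and 37.1 against 25.5 and 26.4 CPM in TIB153, an opposite pattern without overlap (interaction 1.68 ± 0.118, edgeR adjusted p = 6.58e-12). Of the 6 list members in both tables, 1 passed the interaction higher and 2 lower in CUTLL1, against 24.4% and 13.1% (37.5% together) over all genes of both tables. In BCL9L 38.8% and in AXIN2 25.2% of exonic bases are shared with another gene. LEF1 ratios were 0.1 and 0.11. TCF7 was lower in both lines, with 5676 and 2392 counts in CUTLL1 against 4262 and 3108 in TIB153, and the decrease was larger in CUTLL1 (interaction −0.78 ± 0.0436, edgeR adjusted p = 9.06e-14). CTNNB1 had ratios of 0.35 and 0.05, a line difference of 0.3 (0.14 to 0.46).

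Promoters from RefSeq (GRCh38.p14, 250 bases before to 50 after a start) were found for 50 of the 60 genes higher in CUTLL1 alone, in 67 windows, and the TCF/LEF letters CTTTGA stood on either strand in 9 of these (13.4%) against 8.67% of the 11669 windows of all measured genes. The 3 genes of the class with the largest line difference among those with the letters are shown, with matches to any of the 4 motifs in capitals. They are MYCN (chr2:15940300-15940599, plus strand), FAM222A (chr12:109713575-109713874, plus strand), which had control and treated counts of 60 and 153 in CUTLL1 and of 70 and 58 in TIB153, and JUNB (chr19:12791236-12791535, plus strand).
MYCN: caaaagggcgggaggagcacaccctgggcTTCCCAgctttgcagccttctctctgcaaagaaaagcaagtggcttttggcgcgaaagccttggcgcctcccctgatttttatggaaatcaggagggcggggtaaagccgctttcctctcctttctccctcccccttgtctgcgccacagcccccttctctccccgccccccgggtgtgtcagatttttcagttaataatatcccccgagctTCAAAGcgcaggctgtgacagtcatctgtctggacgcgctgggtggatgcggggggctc
FAM222A: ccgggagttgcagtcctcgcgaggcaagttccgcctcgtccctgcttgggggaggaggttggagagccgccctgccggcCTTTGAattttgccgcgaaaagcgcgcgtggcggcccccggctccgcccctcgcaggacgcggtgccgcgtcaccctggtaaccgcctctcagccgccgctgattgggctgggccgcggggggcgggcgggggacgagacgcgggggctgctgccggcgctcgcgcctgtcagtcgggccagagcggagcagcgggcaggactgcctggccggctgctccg
JUNB: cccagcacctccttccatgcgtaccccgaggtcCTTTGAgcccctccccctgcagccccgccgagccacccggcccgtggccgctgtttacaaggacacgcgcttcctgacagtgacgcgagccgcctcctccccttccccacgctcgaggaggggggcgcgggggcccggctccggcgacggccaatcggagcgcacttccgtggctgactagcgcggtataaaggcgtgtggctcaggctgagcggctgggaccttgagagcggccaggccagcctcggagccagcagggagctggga
In MYCN the TCF/LEF letters begin 9 bases before the start, on the minus strand, and TTCCCA, the RBPJ letters on the minus strand, begin 221 bases before it. In FAM222A the match begins 171 and in JUNB 217 bases before the start. The share of windows with CTTTGA was 13.2% for genes lower in CUTLL1 alone, 11.1% and 22.2% for those higher and lower in TIB153 alone, 25.9% (7 of 27) for opposite genes higher in CUTLL1 and 0.0% (0 of 20) for opposite genes lower in CUTLL1. RBPJ letters (TGGGAA) were in 20.9% of all windows and in 7.41% to 28.9% of those of the classes, AP-1 letters (TGANTCA) in 4.59% and in 0.0% to 13.9%, and heat shock element letters (TTC, any 2 bases, then GAA) in 6.14% and in 0.0% to 13.9%. These shares rest on 18 to 67 windows per class, and the windows of a gene can overlap.

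Of the genes higher in TIB153 under the limits for a single line, ETV5 had the largest line difference (chromosome 3, 186046307 to 186110318, minus strand). ETV5, an ETS factor and known output of ERK signaling, had 13 and 100 counts in control and treated TIB153 and 322 and 452 in CUTLL1. In the tables its libraries stood at 1.77 and 1.6 CPM in control and 12.3 and 11.9 CPM in treated TIB153, and at 43.0 and 39.7 against 58.0 and 55.2 CPM in CUTLL1. Treated libraries lay above control libraries in both lines, with a ratio of 0.37 (0.17 to 0.58) in CUTLL1. ETV5 was low in TIB153 before treatment and remained below CUTLL1 after it, with an interaction of −2.37 ± 0.251 (edgeR, adjusted p = 1.47e-08). SPRY1, a brake on receptor tyrosine kinase signaling, had 79 and 220 counts in TIB153 and 43 and 33 in CUTLL1, with TIB153 libraries at 9.41 and 10.0 CPM in control and 20.6 and 25.6 CPM with PKF118-310. SPRY2 had 116 and 249 counts in TIB153 and 192 and 203 in CUTLL1, and SPRED1 and SPRED2 had ratios of 0.74 and 0.81 in TIB153 against 0.1 and −0.08 in CUTLL1. Over the 12 measured MAP kinase phosphatases and SPRY genes, 3 were lower and 1 (DUSP5, line difference 2.77) higher in CUTLL1. Over all genes these shares were 1.77% and 1.76%. Of the 12 genes 6 had a difference above 0, and the median was −0.27. DUSP8, a phosphatase of JNK, was 10.5-fold higher in CUTLL1 and 23.4-fold higher in TIB153 (interaction −0.88 ± 0.279, edgeR adjusted p = 0.0136). Its interaction did not pass in DESeq2's Wald test (adjusted p = 0.0651). DUSP16, of the same group, passed at −0.79 (edgeR adjusted p = 1.42e-05).

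Other genes higher in TIB153 alone included BBC3, which encodes the proapoptotic protein PUMA, with 43 and 96 counts in TIB153 and 45 and 48 in CUTLL1, and, chosen after its values were seen, CD69, an early activation antigen. Antisense, lincRNA and related long noncoding genes made up 13 of the 45 genes higher in TIB153 alone (28.9%), against 3.13% of all measured genes. The share was 7 of 28 (25%) in opposite genes lower in CUTLL1, 3 of 20 in genes lower in TIB153 alone, 14.3% in genes with ratios of the same sign and unequal size, and 1 of 60 in genes higher in CUTLL1 alone, and no difference between classes was tested. GAS6-AS1 had 16 and 82 counts in TIB153 and 99 and 125 in CUTLL1. RAB30-AS1 had 16 and 77 counts in TIB153 and 41 and 58 in CUTLL1. SDCBP2-AS1 had 13 and 57 counts in TIB153 and 28 and 42 in CUTLL1, with table levels of 1.23 and 1.6 CPM in control and 4.31 and 6.24 CPM in treated TIB153. GAS6-AS1, RAB30-AS1, SDCBP2-AS1 and ETV5 met the minimum of 5 CPM in TIB153 only through the treated library. Low control levels in this class therefore follow in part from how genes were admitted. The noncoding share describes genes admitted in this way. Long noncoding genes were low in level, and genes of low level differed between the lines more often. Among genes with a mean under 10 CPM, 19.5% of the 154 noncoding genes and 13.9% of the others had a line difference, and between 10 and 20 CPM these shares were 17.3% of 98 and 6.92%. Of the 49 noncoding genes with a line difference 35 were lower in CUTLL1 and 14 higher. Over all 322 noncoding genes the median ratio was 0.13 in CUTLL1 and 0.24 in TIB153. Without a strand setting, reads of an antisense gene and its partner cannot be told apart. Of the 45 genes, 35 were in the TIB153 table, in which treated and control libraries did not overlap in any, and the second libraries differed by at least 2-fold in 25.

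**Figure D3:**
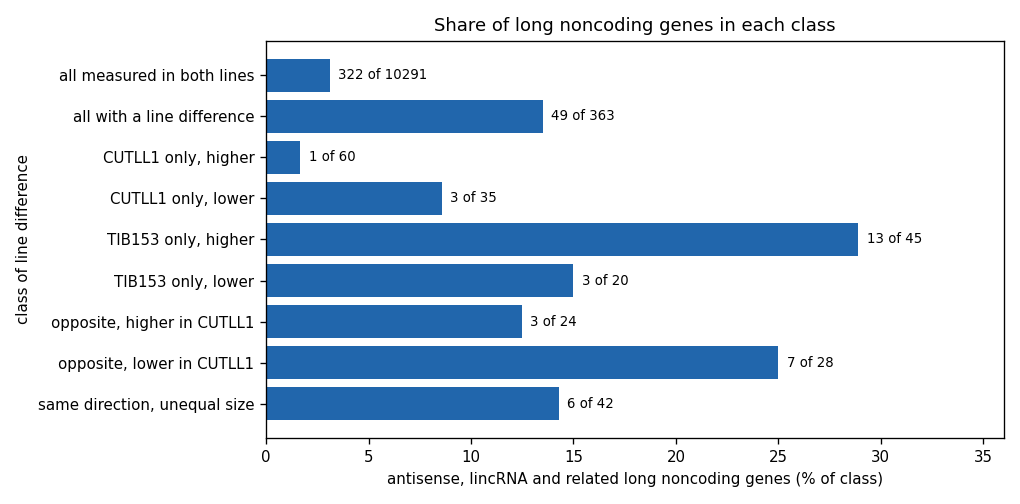
Share of antisense, lincRNA and related long noncoding genes (percent, with counts) among all 10291 measured genes, all 363 genes with a line difference, and each class of response. The bars for genes higher in TIB153 alone (28.9%) and opposite genes lower in CUTLL1 (25%) are the longest, and that for genes higher in CUTLL1 alone (1.67%) the shortest.

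Genes lower in TIB153 alone were fewer and smaller in effect, with line differences of at most 1.44. Several encode cytoskeletal proteins. VCL, which encodes vinculin of integrin adhesions, had 233 and 89 counts in TIB153 and 191 and 180 in CUTLL1, with TIB153 libraries at 29.9 and 30.7 CPM in control and 12.7 and 10.9 CPM with PKF118-310. MYO1D, a class I myosin, had 172 and 82 counts in TIB153 and 82 and 91 in CUTLL1. CORO2A, a coronin, and SYNE2, which links the nucleus to actin, were in the class too and were picked after their values were seen. PPP3CA, the catalytic subunit of calcineurin, had 179 and 89 counts in TIB153 and 155 and 205 in CUTLL1. The highest line difference of a gene with a symbol in the class was that of SEMA3G, at 1.43. SLC4A4, a bicarbonate cotransporter, had 185 and 79 counts in TIB153 and 79 and 85 in CUTLL1, and SLC16A10, a carrier of aromatic amino acids, had 162 and 81 counts in TIB153 and 188 and 210 in CUTLL1. Of the 20 genes, 15 were in the TIB153 table without overlap of treated and control libraries, and in 9 of these the second libraries differed by at least 2-fold.

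Opposite responses were seen for 52 genes in the deposited libraries, of which 26 and 24 were also opposite with 1 lane left out, and 18 were in both tables. All 18 passed the interaction, which their choice fixed, since the deposited libraries that chose them are columns of the test and the tables list genes called changed in each line. Among the 52, C20orf197 and CD1B had ratios of at least 2-fold in both lines. CD1B (chromosome 1, 158327950 to 158331531, minus strand), which presents lipid antigens, had 1260 and 398 counts (control, treated) in CUTLL1 against 62 and 149 in TIB153. In the tables it stood at 166 and 172 CPM in control and 53.2 and 48.4 CPM in treated CUTLL1, and at 9.96 and 7.73 against 16.9 and 17.5 CPM in TIB153. Control levels were far apart and the treated levels nearer to each other, and the interaction was −2.70 ± 0.156 (edgeR, adjusted p = 1.44e-13). C20orf197, a lincRNA in the annotation used, had control and treated counts of 49 and 11 in CUTLL1 and of 117 and 257 in TIB153 (interaction −2.81 ± 0.335, edgeR adjusted p = 1.16e-07). H6PD, the glucose-6-phosphate dehydrogenase of the endoplasmic reticulum, had 38.5 and 39.4 CPM in control and 19.7 and 20.6 CPM in treated CUTLL1, and 39.3 and 37.2 against 71.7 and 67.6 CPM in TIB153. The control libraries of the lines overlapped and the treated libraries lay on either side of them. INPP5D, named after its test value was seen as was RORB, encodes the lipid phosphatase SHIP1 that opposes PI3K signaling and stood at 94.2 and 96.6 CPM in control and 58.5 and 58.4 CPM in treated CUTLL1, and at 56.9 and 50.3 against 103 and 101 CPM in TIB153 (interaction −1.64 ± 0.0913, edgeR adjusted p = 8.36e-14). B3GAT1, which makes the CD57 carbohydrate, had an interaction of −2.32 ± 0.198 (edgeR adjusted p = 2.82e-10), TSPOAP1 one of −2.26 ± 0.151 (2.56e-12) and UBOX5 one of −1.64 ± 0.212 (4.14e-07).

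Opposite genes higher in CUTLL1 and lower in TIB153 included regulators of transcription and of kinase signaling. SH3BP5, a RAB11 exchange factor that also binds BTK, had control and treated counts of 92 and 234 in CUTLL1 and of 1277 and 854 in TIB153, at 12.5 and 11.4 CPM in control and 27.1 and 29.6 CPM in treated CUTLL1 and at 157 and 166 against 101 and 103 CPM in TIB153. The interaction of SH3BP5 was 1.91 ± 0.126 (edgeR adjusted p = 2.1e-12), and a neighboring gene overlaps 47.5% of its exonic bases. IRF1, the interferon regulatory factor that turns on antigen presentation genes, had 310 and 594 counts (control, treated) in CUTLL1 against 1386 and 829 in TIB153. The IRF1 libraries stood at 42.4 and 41.2 against 65.9 and 73.4 CPM in CUTLL1 and at 191 and 181 against 106 and 99.5 CPM in TIB153, and the interaction was 1.59 ± 0.092 (edgeR adjusted p = 1.44e-13). For both genes the line with the lower control level had the higher ratio, and the treated levels were nearer to each other than the control levels were. RORB, an orphan nuclear receptor, stood at 144 and 145 against 285 and 277 CPM in CUTLL1 and at 66.6 and 69.7 against 44.5 and 48.0 CPM in TIB153, so here the lines were further apart after treatment. PRKAR2B, a regulatory subunit of protein kinase A (interaction 1.53 ± 0.22, edgeR adjusted p = 4.07e-06), OAT, ornithine aminotransferase (1.21 ± 0.109, 7.95e-10), and GLI3, a Hedgehog pathway factor (1.35 ± 0.163, 1.44e-07), passed as well. HEG1, KLF5, SRGN and CTSV were opposite in the deposited libraries, with line differences of 2.11, 1.49, 1.7 and 1.92, and were not in both tables, so they were not tested.

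**Figure D4:**
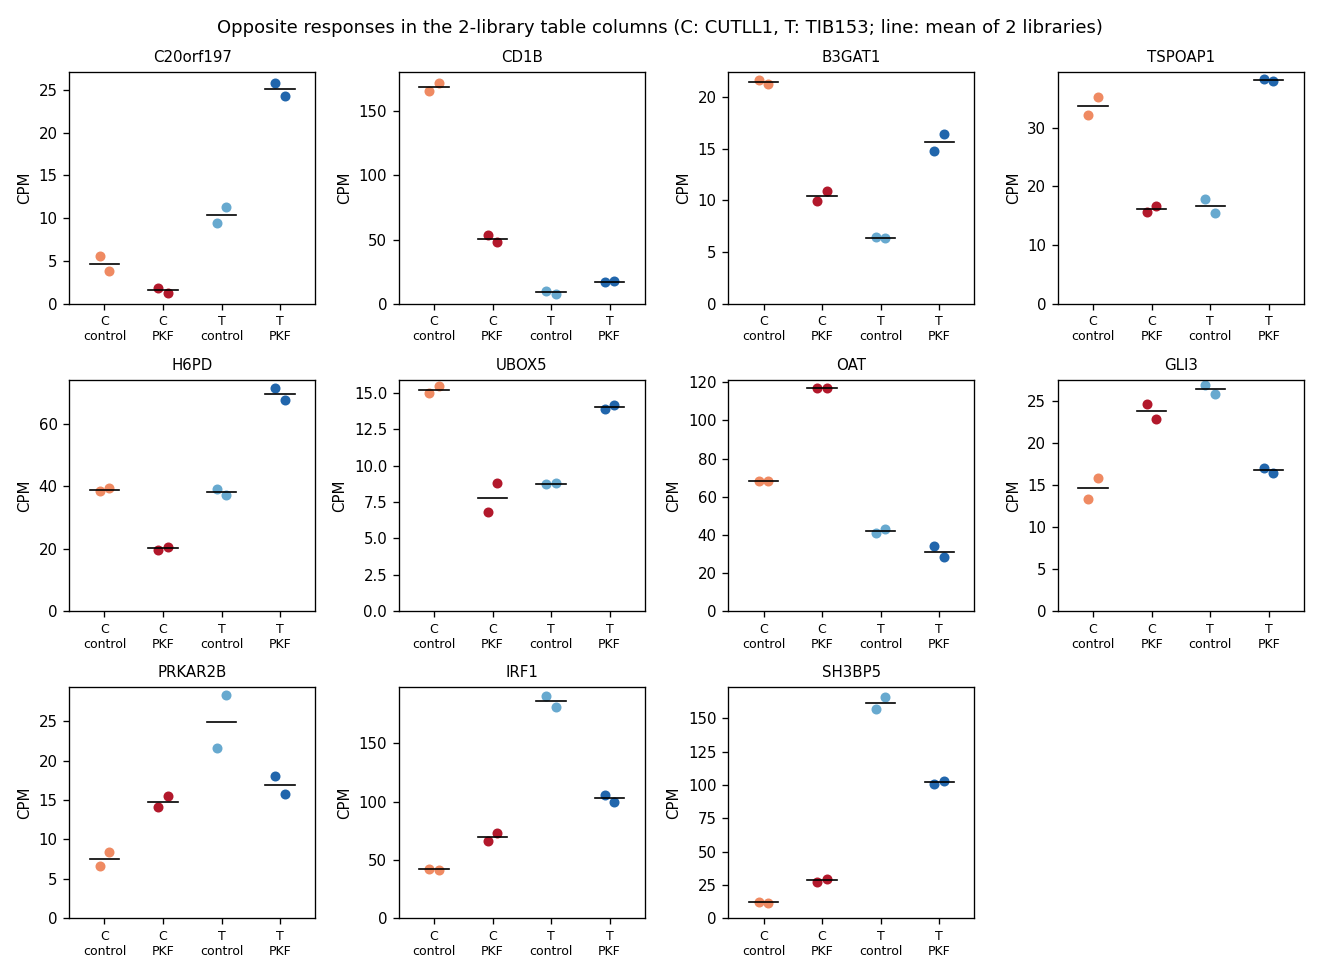
CPM (linear axes from 0) of the 11 named opposite genes present in both tables, in control and PKF118-310 libraries of CUTLL1 (C) and TIB153 (T). Each point is 1 library, n = 2 per group, and the line is their mean, and in every panel the treated libraries lie on opposite sides of their controls in the 2 lines without overlap.

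Of the 28 opposite genes lower in CUTLL1, 18 were not in both tables and their line differences were not tested, the genes that follow among them. CTTN, the actin-binding protein cortactin, had control and treated counts of 92 and 69 in CUTLL1 and of 57 and 310 in TIB153. CD72, a coreceptor best known from B cells, had 63 and 46 counts (control, treated) in CUTLL1 against 31 and 159 in TIB153, and MFAP4, a matrix protein, had 53 and 33 in CUTLL1 and 17 and 83 in TIB153. In these 3 genes the ratio in TIB153 made up most of the line difference, and the counting interval of CD72 in CUTLL1 reached −0.02. PFKM, a phosphofructokinase, had control and treated counts of 122 and 68 in CUTLL1 and of 29 and 53 in TIB153. CD72, MFAP4 and PFKM met the minimum of 5 CPM in TIB153 only through the treated library. TRAC, the T cell receptor α constant gene, had 1683 and 923 counts (control, treated) in CUTLL1 against 68 and 117 in TIB153. ATP6AP1L had control and treated counts of 302 and 111 in CUTLL1 and of 39 and 80 in TIB153, and LINC01226 had 129 and 44 in CUTLL1 and 131 and 224 in TIB153.

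Some abundant genes with line differences near or under 2-fold passed the interaction. The genes of this paragraph, and ICOS, FSCN1 and SHISA2, were named after their test values were seen. TMSB10, which binds actin monomers, stood at 200 and 198 against 286 and 280 CPM in CUTLL1 and at 726 and 696 against 540 and 517 CPM in TIB153 (interaction 0.93 ± 0.0488, edgeR adjusted p = 2.24e-14). CHI3L2, a chitinase-like protein, stood at 175 and 179 against 98.3 and 94.3 CPM in CUTLL1 and at 152 and 153 against 178 and 191 CPM in TIB153 (interaction −1.15 ± 0.0671, edgeR adjusted p = 1.45e-13). RB1, the retinoblastoma tumor suppressor, was lower in both lines but mainly in TIB153, at 174 and 186 against 145 and 139 CPM in CUTLL1 and at 611 and 636 against 259 and 262 CPM in TIB153 (0.92 ± 0.057, edgeR adjusted p = 6.1e-13). APOL3, which did not reach 5 CPM in the deposited CUTLL1 libraries, was up in CUTLL1 and down in TIB153 and had the highest interaction of the genes that passed, at 2.96 ± 0.327 (edgeR adjusted p = 3.22e-08).

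Genes with ratios of the same sign and unequal size numbered 42, of which 29 were in both tables and 27 passed the interaction. Their choice largely fixed this number, since the deposited libraries that chose them are columns of the test. SLC7A11, the cystine transporter, had 395 and 1101 counts (control, treated) in CUTLL1 against 56 and 443 in TIB153 (interaction −1.50 ± 0.15, edgeR adjusted p = 5.15e-09). ICOS, an inducible costimulator, stood at 17.5 and 20 against 32.1 and 31.7 CPM in CUTLL1 and at 2.05 and 3.47 against 17.1 and 15.3 CPM in TIB153 (−1.77 ± 0.243, edgeR adjusted p = 1.09e-06). In the other direction, FSCN1, which bundles actin filaments, stood at 4.43 and 4.21 against 37.1 and 36 CPM in CUTLL1 and at 11.2 and 10.4 against 16.6 and 18.5 CPM in TIB153 (2.37 ± 0.21, edgeR adjusted p = 5.87e-10). SHISA2, an antagonist of Wnt and FGF receptors, stood at 19.7 and 18.1 against 150 and 153 CPM in CUTLL1 and at 57.9 and 55.3 against 114 and 112 CPM in TIB153 (2.01 ± 0.101, edgeR adjusted p = 1.43e-14). ABTB2 and SERTAD1 had line differences of 3.13 and 2.31 in the deposited libraries and were not in both tables. CDKN1A, the cell cycle inhibitor p21, had control and treated counts of 27 and 220 in CUTLL1 and of 12 and 40 in TIB153, under 5 CPM in the latter.

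Other gene lists held members with a line difference in 1 or both directions, or none. Over all measured genes, 1.76% were higher and 1.77% lower in CUTLL1. Of 20 measured interferon-stimulated genes 3 were higher and none lower in CUTLL1, OAS3 with 45 and 70 counts against 239 and 141 in TIB153 among them. Of 21 p53 targets 1 was higher and 2 were lower. Of 24 glycolysis genes 2 were higher and 1 lower, with ALDOC at 111 and 337 counts in CUTLL1 against 89 and 117 in TIB153. Of 15 integrins and homing receptors 2 were higher and 1 lower, and of 15 NF-κB members 2 were higher and 1 lower. None of the 20 measured cholesterol synthesis enzymes had a line difference of 2-fold. Of the 8 of them in both tables, the interaction passed lower in CUTLL1 for 5 and higher for 2 (13.1% and 24.4% over all genes of both tables), with SQLE at −0.75 (edgeR adjusted p = 9.38e-09), MSMO1 at −0.64 (1.31e-05) and DHCR7 at −0.53 (2.72e-07). SREBF2 had a line difference of 0.19 (0.06 to 0.33).

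**Figure D5:**
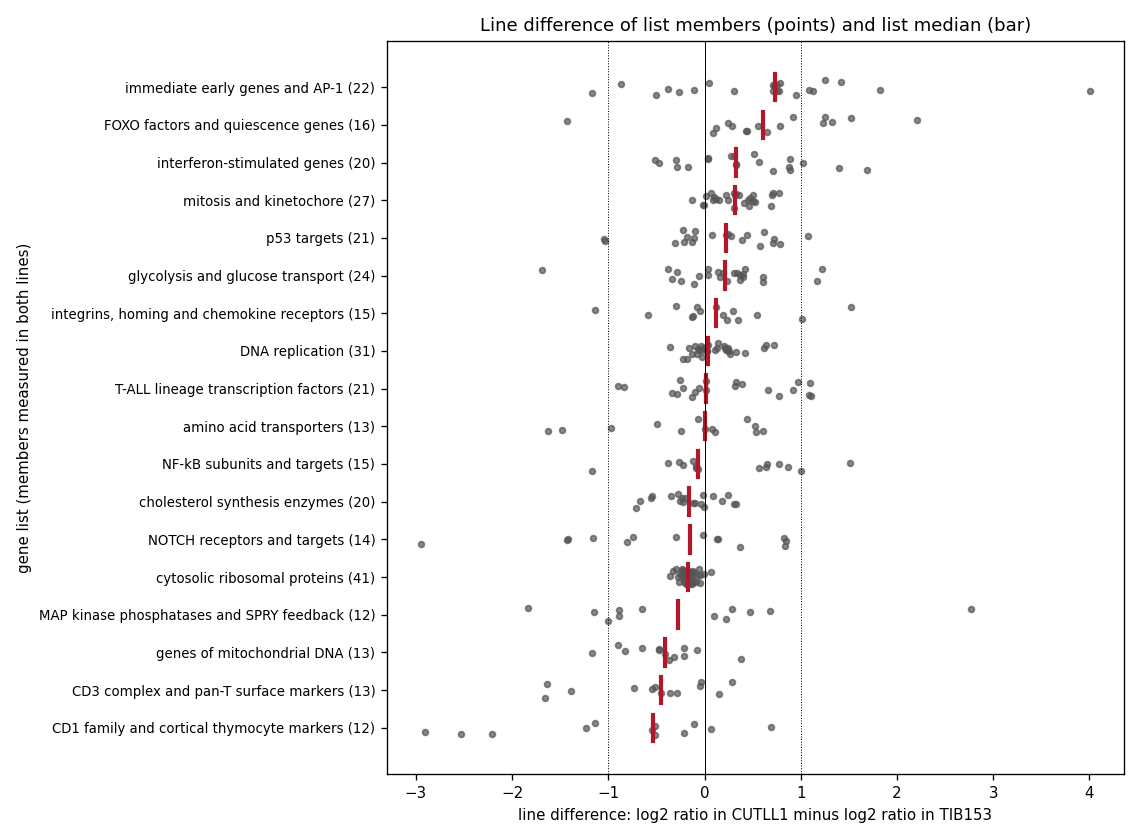
Line difference (log2 ratio in CUTLL1 minus log2 ratio in TIB153) of each measured member (points) and the median (red bar) for 18 gene lists, with the number of measured members in parentheses and dotted lines at 2-fold. The CD1 and cortical thymocyte list has its median at −0.54 and the immediate early list at 0.74.

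Some lists had medians away from that of all genes with few or no members past 2-fold. Of 27 mitosis and kinetochore genes 24 had a line difference above 0, against 5575 of all 10291 genes. Their median was 0.31 against 0.04 over all genes. Among the 5 in both tables the interaction passed higher in CUTLL1 for 3 and lower for none, against 24.4% and 13.1% over all 2420 genes. CENPF, a kinetochore protein, had ratios of 0.35 and −0.37 (interaction 0.65 ± 0.044, edgeR adjusted p = 2.63e-12). Of 41 cytosolic ribosomal protein genes 1 was above 0, with a median of −0.17. Of 13 protein-coding genes of mitochondrial DNA 1 was above 0, and the median was −0.41. All 5 in both tables passed the interaction lower in CUTLL1, against 13.1% over all 2420 genes. MT-ND2 had 18885 and 17197 counts (control, treated) in CUTLL1 against 15999 and 33089 in TIB153, a line difference of −1.17 (−1.21 to −1.13). MT-ND1 had ratios of −0.29 and 0.53 and an interaction of −0.82 ± 0.042 (edgeR adjusted p = 1.89e-14), and MT-ND6 was the member above 0, at 0.38. The share of counts from mitochondrial DNA was 4.18% and 3.78% in control and treated CUTLL1 and 4.01% and 5.06% in TIB153.

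A further 133 genes were measured in CUTLL1 and stayed under 1 CPM in both TIB153 libraries, and 96 were measured only in TIB153, so that no line difference could be formed for them. TRBV6-6 had control and treated counts of 1987 and 943 in CUTLL1 and of 1 and 0 in TIB153. PTGER3, a prostaglandin E2 receptor, had 166 and 515 counts in TIB153 and 0 and 7 in CUTLL1, and ADCYAP1, which encodes the neuropeptide PACAP, had 478 and 1009 in TIB153 and 5 and 3 in CUTLL1. EFEMP1, a matrix glycoprotein, had 1082 and 745 counts in TIB153 and 2 in each CUTLL1 library. CD44, an adhesion receptor and Wnt target, had 53 and 102 counts (control, treated) in CUTLL1 against 1 and 0 in TIB153.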

How the data were processed

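Poly(A) RNA was sequenced from CUTLL1 and TIB153 cells, control or with PKF118-310, as 4 libraries in 2 lanes each. The authors deposited raw counts per gene and lane. HISAT2, HTSeq, DESeq2 and hg38 are named in the submitters' processing notes, and versions and strand setting are not given in the sources used here. The authors' tables hold counts of 3809 (CUTLL1) and 4792 (TIB153) genes with 2 columns per condition, the baseMean signal deposited beside them, which served to solve the authors' size factors, and log2 fold changes and p-values of the authors' own comparisons, which were not used. No column of per-sample values was left unmapped (0).

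Lanes were summed, and 13280 genes passed the low-count filter of edgeR 4.0.16 (R 4.3.3). Libraries were scaled by TMM, and a pseudocount of 0.5 counts was added before log2 ratios were formed. Intervals of 95% follow from the counts alone. The line by treatment interaction was fitted with edgeR's quasi-likelihood test on the 2420 genes of both tables, with Benjamini-Hochberg adjustment over all of them and each column scaled from the matching deposited library. The design had foreseen this fit only if the columns proved to be separate libraries. Scripts were tested on simulated data. Totals of 7609427 to 8140391 counts per library gave a median interval half-width of 0.30 (log2).

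The members and the 48 gene lists were chosen with earlier results of these data known. Named genes were the 15 highest and 15 lowest line differences, up to 10 genes of each opposite direction, up to 8 per one-line class, up to 4 called members per list, a fixed set of genes of the pathways, and up to 5 genes per line measured only there. Not all are printed, and genes outside the rule are further list members, listed genes with motif matches or genes named as chosen after their values were seen. Alternatives covered scaling, the expression minimum, the pseudocount, the interval, the class limits, lanes or columns left out, the replicate block and DESeq2 1.42.0. Promoters came from RefSeq tables (GRCh38.p14), which matched 8044 of the 10291 genes by symbol. Levels of Y-linked genes and results for some other genes are not reported here.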

Additional observations from a re-analysis of the deposited data

Results flagged for a closer look

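Values below are line differences on the log2 scale, listed because the effect of PKF118-310 differed between CUTLL1 and TIB153. In the genes of both tables the edgeR interaction passed an adjusted p of 0.05 with n = 2 libraries a group. The lowest of the listed values were found for C20orf197 at −2.81, CD1B at −2.70, PTPN6 at −2.71, ETV5 at −2.37, B3GAT1 at −2.32, TSPOAP1 at −2.26, CR2 at −3.10 and DNTT at −2.33. Smaller differences in that direction were found for H6PD at −1.82, UBOX5 at −1.64, HES1 at −1.18, DUSP8 at −0.88, CD28 at −1.66, CD2 at −1.33, SLC6A9 at −1.37, SLC7A11 at −1.50, TP53INP1 at −1.15, TNFAIP3 at −1.10, TCF7 at −0.78, NOTCH1 at −0.78, NOTCH3 at −0.78, JUN at −0.52 and CCND3 at −0.40. Ratios were higher in CUTLL1 for NATD1 at 2.04, PRKAR2B at 1.53, IRF1 at 1.59, SH3BP5 at 1.91, OAT at 1.21, GLI3 at 1.35, BCL9L at 1.68, PYCR3 at 0.86, CD83 at 0.92, IRF7 at 0.87 and SLC2A3 at 0.86. In DESeq2's Wald test DUSP8, TP53INP1, JUN and IRF7 did not pass (adjusted p = 0.0651, 0.0556, 0.112 and 0.201).

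In genes that were not in both tables the lines had opposite ratios in the deposited libraries, and the difference was not tested. It was negative for MFAP4 at −2.92, CTTN at −2.83, CD72 at −2.78, ATP6AP1L at −2.46, LINC01226 at −2.3, ZNF821 at −2.17, PFKM at −1.69 and TRAC at −1.63. It was positive for HEG1 at 2.11, SRGN at 1.7, CTSV at 1.92, KLF5 at 1.49, CFAP44 at 1.72, KCTD11 at 1.22 and ACACB at 1.25. In ZNF821 and CFAP44 over 25% of exonic bases are shared with another gene.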

How the results depend on the processing

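No named gene with a line difference changed direction under any alternative run for it. Values near 0 changed sign for the median of amino acid transporters (0.01, and −0.01 and −0.03 with total counts and upper quartile), that of T-ALL transcription factors (0.02, and −0.02 with upper quartile) and MYC (−0.01, and 0.03 in the tables). All 430 alternative values of named genes and all 144 of list medians moved by less than the half-width of their counting interval (for a list, the median over its members), 118 of 147 counts stayed within 1.5 times the reported count, and no scaling moved the share of genes higher in CUTLL1 by over 10 percentage points. The counts of genes followed the expression minimum. Without a minimum, 331 genes were higher and 376 lower in CUTLL1, with 106 higher and 59 lower in CUTLL1 alone, 114 higher and 40 lower in TIB153 alone, and 287 and 354 measured only in CUTLL1 and only in TIB153. At 2.5 CPM, 76 were higher and 35 lower in TIB153 alone, and 219 and 244 were measured in one line. At 10 CPM, 103 were higher and 102 lower in CUTLL1, 30 were opposite, 33 and 23 were higher and lower in CUTLL1 alone, 18 and 11 in TIB153 alone, and 73 and 30 were measured in one line. A limit of 0.25 in the other line left 31 higher and 22 lower in CUTLL1 alone and 25 higher in TIB153 alone, and a smallest ratio of 1 left 2 opposite genes. These shifts follow from the limits themselves. With 1 lane left out the counts were 231 in both cases for genes higher in CUTLL1, 219 to 240 for genes lower, 51 to 53 opposite, 62 to 65 and 41 to 44 higher and lower in CUTLL1 alone, and 53 to 68 and 30 to 39 in TIB153 alone, the highest without lane 1. Of the 52 opposite genes 26 and 24 were shared with the single-lane counts and 39 with total-count scaling, so membership of that class is less certain than its size. Without lane 1 and without lane 2, 135 and 128 of the 181 genes higher in CUTLL1 were still called. For the 182 lower genes these numbers were 129 and 138, so membership of these sets also depends on the lanes used. The interaction called 310 genes higher and 155 lower in CUTLL1 with DESeq2's Wald test, of which 306 and 155 were shared, and the cause was not tested. This alternative, and those of the scaling, block crossing and left-out columns of the interaction, were chosen after seeing the data. Scaling by TMM over the table genes gave 508 and 391, and leaving out 1 table column gave 519 to 554 and 264 to 288, where the lone library is assumed to vary like the others. With the replicate block the interaction called 573 higher and 297 lower. Same-numbered columns deviated together with a correlation of −0.296 in CUTLL1 and 0.244 in TIB153, and the deposited libraries were columns of unlike number in CUTLL1 and of like number in TIB153, so the numbers as given do not pair the libraries of both lines. With the numbers crossed in CUTLL1 the block called 721 and 380. Depth limits the genes of few counts most, and no lane value has a replicate.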
